A study of Mus musculus with 6 samples.

Results

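Expression of the chondrocyte transcription factors Sox5, Sox6, Sox9, Trps1, Nkx3-2 and Runx3 was examined in articular cartilage and subchondral bone of the tibia in Frzb-/- and wild-type mice. Every probe set with 1 gene symbol in the array annotation that named one of these 6 genes was taken, which gave 15 probe sets of the 30618 measured. They covered 5 of the 6 genes, with 4 probe sets each for Sox5, Sox6 and Trps1, 2 for Sox9 and 1 for Runx3. No probe set carried the symbol of Nkx3-2 alone, and its expression was not analysed here.

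Frzb encodes a secreted frizzled-related protein that binds WNT ligands outside the cell and antagonises their signal. Tissue of male mice aged 6 weeks, on a C57Bl/6J background, was hybridised to Affymetrix mouse arrays with 1 array per mouse. The groups were 2 Frzb-/- mice (animals 14 and 17), 1 further mouse labelled Frzb-/- (animal 6), and 3 wild-type mice (animals 6-1, 8-1 and 9-1). Frzb is lost from the germ line in these mice, thus in all cells, and each tissue piece was cut at the growth plate, so that it held articular cartilage together with bone, marrow and the upper growth plate. The study left out 1 mouse, which clustered with the wild-type mice and was re-genotyped as heterozygous, and did not give its number. The log2 fold changes it printed for Frzb (-3.606) and Mmp8 (-3.531) were obtained here with animals 14 and 17, so that animal 6 was the mouse not used. Animal 6 is therefore shown apart, although its label is Frzb-/- and its Frzb values of 6.93 and 5.34 at the 2 Frzb probe sets were as low as those of animals 14 (7.02 and 5.22) and 17 (6.42 and 4.92), against 10.02 to 10.79 and 8.08 to 8.96 in the wild-type mice. Over all probe sets its array correlated with those of animals 14 and 17 at a Pearson's r of 0.940 to 0.957, and with the wild-type arrays at 0.983 to 0.991. Values throughout are log2 expression values from robust multi-array averaging (RMA), and differences are log2 fold changes with Frzb-/- mice over wild-type mice.

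SOX9 is the transcription factor without which no cartilage forms. SOX5 and SOX6 have no transactivation domain of their own and act beside SOX9 at the enhancers of cartilage matrix genes such as Col2a1 and Acan. TRPS1 is a GATA-type zinc finger repressor that is expressed in growth plate chondrocytes and perichondrium and is mutated in human tricho-rhino-phalangeal syndrome. NKX3-2 holds chondrocytes in the immature state by repressing Runx2, whereas RUNX3 acts with RUNX2 in chondrocyte maturation and is also a regulator of T and NK lymphocytes. In mice, SOX6 is in addition required for the maturation of red blood cells.

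Because Frzb is a WNT antagonist and 3 families of DNA-binding factors are at issue, the bases before the transcription starts of these genes were searched for TCF/LEF letters (ATCAAAG or TTCAAAG), SOX letters (AACAAT or AACAAAG) and RUNX letters (AACCACA), on both strands. RefSeq sequences of build GRCm38.p6 were given for 4 of the 6 genes, in 10 windows of 250 bases that end at a transcription start. The windows shown are that of Sox5, 1 of the 2 Sox6 windows that held both TCF/LEF and SOX letters, and the Runx3 window that held RUNX letters. They are given 5′ to 3′ on the gene's strand, with matches in capitals.
Sox5, chr6:143947107-143947356, minus strand: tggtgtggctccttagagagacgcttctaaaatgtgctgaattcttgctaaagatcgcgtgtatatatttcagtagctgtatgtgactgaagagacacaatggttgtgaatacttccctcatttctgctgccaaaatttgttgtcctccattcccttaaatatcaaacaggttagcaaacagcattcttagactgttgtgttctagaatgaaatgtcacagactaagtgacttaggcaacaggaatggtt
Sox6, chr7:115995087-115995336, minus strand: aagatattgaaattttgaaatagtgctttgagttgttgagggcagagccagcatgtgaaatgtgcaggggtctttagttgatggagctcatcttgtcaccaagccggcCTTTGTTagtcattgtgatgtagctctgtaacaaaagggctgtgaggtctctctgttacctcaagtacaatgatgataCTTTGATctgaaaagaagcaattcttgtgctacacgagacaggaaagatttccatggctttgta
Runx3, chr4:135120395-135120644, plus strand: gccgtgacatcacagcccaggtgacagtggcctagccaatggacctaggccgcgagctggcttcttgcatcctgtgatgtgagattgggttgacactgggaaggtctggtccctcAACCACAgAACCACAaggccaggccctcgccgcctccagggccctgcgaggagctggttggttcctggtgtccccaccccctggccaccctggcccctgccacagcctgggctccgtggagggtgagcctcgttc

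The Sox5 window held none of these letters. In the Sox6 window the TCF/LEF letters lay 64 bases and the SOX letters 142 bases before the start. TCF/LEF letters were found in 3 of the 6 Sox6 windows and SOX letters in 4 of them, against 7.48% and 13.8% of all 32851 windows of this length. The Runx3 window held the RUNX letters at 135 and again at 127 bases before the start, and 4.4% of all windows held them at least once. The second Runx3 window and the Nkx3-2 window held none of the letters searched. The 6 Sox6 windows belong to 1 gene and are not independent, and a match of letters is not a site of binding.

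None of the 15 probe sets passed the study's thresholds, which ask for a log2 fold change beyond 1 in either direction and an adjusted p under 0.01 in limma's two-sided moderated test, with Benjamini-Hochberg adjustment over all probe sets. Among all probe sets, 2.34% passed as higher and 5.09% as lower. At an adjusted p under 0.05 with no limit on the fold change, 1 of the 15 was higher, for Trps1 (11.7% of all probe sets), and 1 was lower, for Sox6 (14.8%). At an unadjusted p under 0.05 there were 8 of 15, against 39.2% of all. The values of animals 14 and 17 lay above all wild-type values at 5 probe sets, 3 of Sox5 and 2 of Trps1, and below them at 4, 3 of Sox6 and the 1 of Runx3. Such a lack of overlap was seen at 27.5% of all probe sets in the higher and 28.1% in the lower direction, so that 5 and 4 of 15 were near the background. The median log2 fold change of the 15 was 0.25, beside 0.02 over all probe sets. With 2 against 3 arrays the precision was limited, and 8 of the 15 95% intervals lay within 1 log2 unit of no change, against 77.2% of all probe sets.

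**Figure D1:**
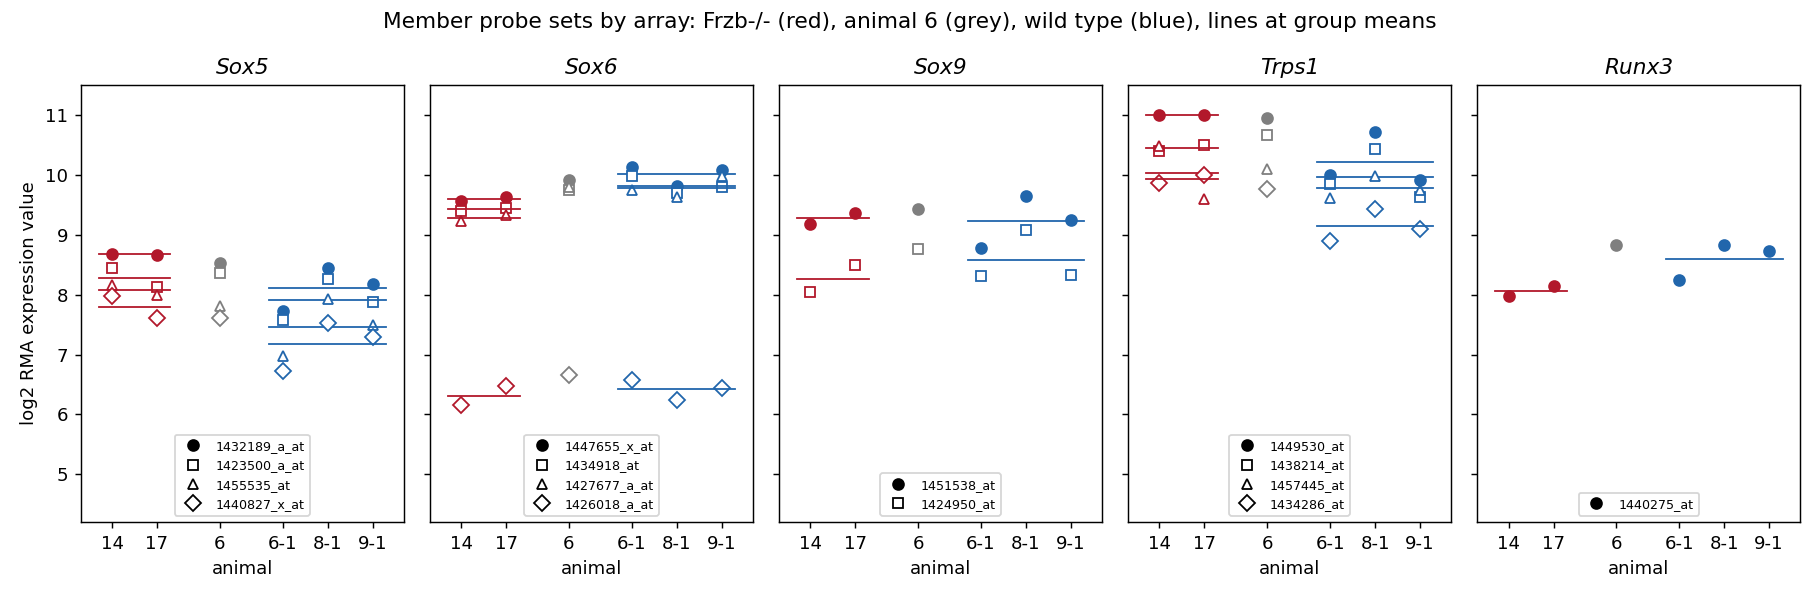
Log2 RMA expression values (vertical axis) of the 15 probe sets in each mouse (horizontal axis, animal numbers), by gene, with Frzb-/- mice in red, animal 6 in grey and wild-type mice in blue. Lines mark the group means, and levels of different probe sets are not comparable. For Trps1 at 1434286_at, animals 14 and 17 (9.86 and 9.99) lie above the wild-type mice (8.90 to 9.43).

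Of the SOX trio, Sox5 had higher group means in Frzb-/- mice at all 4 probe sets, Sox6 lower ones at all 4, and the 2 probe sets of Sox9 took opposite directions. None of these differences passed, and differences between the genes were not tested.

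At the Sox5 probe set 1432189_a_at, the values were 8.68 and 8.66 in animals 14 and 17, 8.53 in animal 6, and 7.73, 8.45 and 8.17 in the wild-type mice 6-1, 8-1 and 9-1. Both Frzb-/- mice lay above all wild-type mice, and the wild-type mice differed from each other by more than the group means did. The log2 fold change was 0.56 (SE 0.21, 95% interval 0.06 to 1.05, adjusted p = 0.0965), and it was 0.36 without wild-type mouse 6-1. At 1455535_at the Frzb-/- mice had 8.15 and 7.99, animal 6 had 7.81, and the wild-type mice had 6.98, 7.93 and 7.49, without overlap (0.61, SE 0.26, adjusted p = 0.133). At 1440827_x_at the Frzb-/- mice had 7.97 and 7.60, animal 6 had 7.61, and the wild-type mice had 6.73, 7.53 and 7.29 (0.60, SE 0.25, adjusted p = 0.118). The groups overlapped only at 1423500_a_at, where animal 17 (8.12) lay below wild-type mouse 8-1 (8.26), with a log2 fold change of 0.38 (adjusted p = 0.243). Without mouse 6-1, the lowest wild-type mouse for Sox5, the other log2 fold changes were 0.36 at 1455535_at, 0.38 at 1440827_x_at and 0.21 at 1423500_a_at, and the last was 0.22 without animal 14. The 4 probe sets ordered the arrays alike, with a Pearson's r between 0.92 and 0.98 for pairs of them over the 6 arrays.

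Sox6 lay lower in Frzb-/- mice at the 3 probe sets with values above 9. At 1427677_a_at the values were 9.22 and 9.33 in animals 14 and 17, 9.79 in animal 6, and 9.75, 9.62 and 9.98 in the wild-type mice. The Frzb-/- mice lay below every other array, and animal 6 stood among the wild-type mice. The log2 fold change was -0.51 (SE 0.14, 95% interval -0.85 to -0.17, adjusted p = 0.0403), which is under the looser threshold but not under the study's. It did not stay under 0.05 when any 1 mouse was left out (adjusted p between 0.0629 and 0.138), with all 3 labelled mice (0.465) or with cyclic loess (0.0533). The probe set 1447655_x_at gave 9.56 and 9.63 in Frzb-/- mice, 9.92 in animal 6, and 10.13, 9.82 and 10.08 in wild-type mice (-0.41, SE 0.14, adjusted p = 0.0697). The probe set 1434918_at gave 9.40 and 9.45 in Frzb-/- mice, 9.74 in animal 6, and 9.98, 9.69 and 9.79 in wild-type mice (-0.40, SE 0.13, adjusted p = 0.0669). The group ranges did not overlap at either. The dimmest Sox6 probe set, 1426018_a_at, had 6.15 and 6.47 in Frzb-/- mice, 6.65 in animal 6, and 6.57, 6.24 and 6.45 in wild-type mice, which overlapped (-0.11, SE 0.16), and its difference turned to 0.055 without animal 14 and to 0.022 with centring on cartilage genes.

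Sox9, the first factor of the trio in development, showed no difference larger than the spread between mice. At 1451538_at the values were 9.18 and 9.36 in animals 14 and 17, 9.43 in animal 6, and 8.78, 9.65 and 9.25 in the wild-type mice. Both Frzb-/- mice lay inside the wild-type range, with a log2 fold change of 0.05 (SE 0.24, 95% interval -0.53 to 0.63, adjusted p = 0.908), which became -0.18 without wild-type mouse 6-1. At 1424950_at the Frzb-/- mice had 8.04 and 8.49, animal 6 had 8.76, and the wild-type mice had 8.32, 9.09 and 8.33. The groups overlapped there too (-0.31, SE 0.27, 95% interval -0.94 to 0.32, adjusted p = 0.429). The difference at that probe set was -0.059 without mouse 8-1, -0.086 without animal 14 and -0.54 without animal 17. Both intervals exclude a log2 change of 1 in either direction.

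Trps1 had the highest log2 fold changes among the 15 probe sets. At 1434286_at the values were 9.86 and 9.99 in animals 14 and 17, 9.76 in animal 6, and 8.90, 9.43 and 9.09 in the wild-type mice. All 3 mice labelled Frzb-/- lay above all 3 wild-type mice. The mean was 9.92 ± 0.09 in Frzb-/- mice (SD, n = 2) and 9.14 ± 0.27 in wild-type mice (SD, n = 3), a log2 fold change of 0.78 (SE 0.17, 95% interval 0.37 to 1.2, adjusted p = 0.0181) or 1.72-fold. The log2 fold change lay between 0.66 and 0.93 when any 1 mouse was left out. When animal 6 was counted as a Frzb-/- mouse, the adjusted p was 0.428. In that fit the Sox5 probe sets 1432189_a_at and 1440827_x_at had the same adjusted p to 3 digits, and no gene of any list passed.

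At 1449530_at, Trps1 gave 11.00 and 11.01 in animals 14 and 17, 10.95 in animal 6, and 10.00, 10.72 and 9.91 in the wild-type mice. Again there was no overlap, and wild-type mouse 8-1 stood apart from the other wild-type mice in the direction of the Frzb-/- mice. The log2 fold change was 0.79 (SE 0.25, 95% interval 0.21 to 1.37, adjusted p = 0.0541), and 1.05 without mouse 8-1 (adjusted p = 0.0112). Leaving out any other mouse gave 0.64 to 0.80 (adjusted p between 0.113 and 0.186). The remaining Trps1 probe sets overlapped between groups. At 1438214_at the Frzb-/- mice had 10.39 and 10.50, animal 6 had 10.67, and the wild-type mice had 9.85, 10.43 and 9.62 (0.48, SE 0.23, adjusted p = 0.18), which became 0.71 without mouse 8-1 (adjusted p = 0.0389) and 0.30 without mouse 9-1. At 1457445_at the Frzb-/- mice differed from each other, at 10.47 and 9.59, by more than the wild-type mice (9.61, 9.99 and 9.75), and the log2 fold change of 0.25 became -0.19 without animal 14 and 0.69 without animal 17. The Trps1 probe sets thus shared less of their order than those of Sox5, with pairwise r between 0.45 and 0.96.

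Runx3, measured by the single probe set 1440275_at, had 7.98 and 8.14 in animals 14 and 17, 8.83 in animal 6, and 8.24, 8.83 and 8.73 in the wild-type mice. The Frzb-/- mice lay below all other arrays, and animal 6 stood level with the highest wild-type mouse. The mean was 8.06 ± 0.11 in Frzb-/- mice (SD, n = 2) and 8.60 ± 0.32 in wild-type mice (SD, n = 3), a log2 fold change of -0.54 (SE 0.19, 95% interval -1.0 to -0.08, adjusted p = 0.0834). Without wild-type mouse 6-1, the lowest of its group, it was -0.72 (adjusted p = 0.0203). Leaving out any other mouse gave -0.62 to -0.43 (adjusted p between 0.172 and 0.256), and with all 3 labelled mice it was -0.28 (adjusted p = 0.647).

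**Figure D2:**
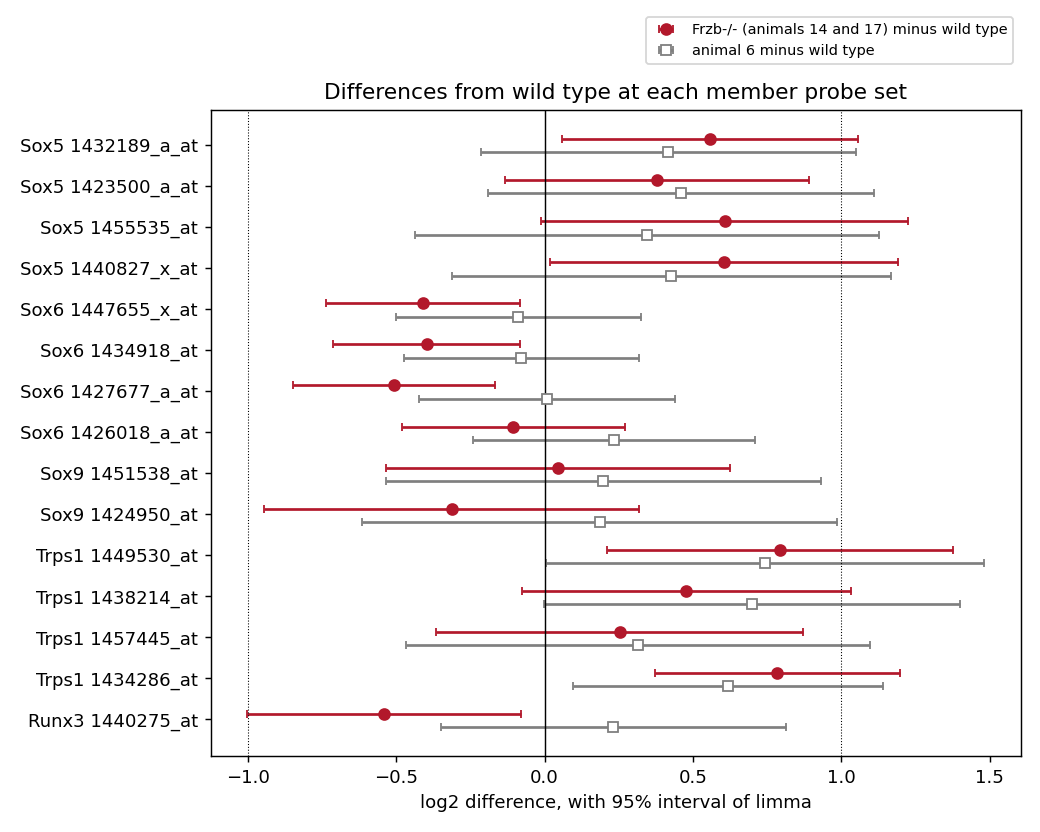
Log2 differences from the wild-type mice (horizontal axis) at each of the 15 probe sets, with 95% intervals from limma, for animals 14 and 17 (red circles) and for animal 6 (grey squares). Dotted lines mark 1 log2 unit in either direction. The Sox6 and Runx3 values of animal 6 lie near or above 0, from -0.09 to 0.23, and its Trps1 values lie from 0.32 to 0.74.

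Animal 6 was tested against the wild-type mice with its spread taken from the other groups. No probe set of the 30618 passed in this comparison, the 15 included, and 2 of the 15 had an unadjusted p under 0.05, against 7.18% of all. Animal 6 lay above the wild-type range at 9 of the 15 (34.4% of all probe sets) and below it at 0 (22.7%). Its values were nearer to the Frzb-/- mean at all 4 Sox5 and all 4 Trps1 probe sets and at Sox9 1451538_at. They were nearer to the wild-type mean at all 4 Sox6 probe sets, at Runx3 and at Sox9 1424950_at. For Trps1 its differences from wild type were 0.74, 0.70, 0.32 and 0.62 (adjusted p between 0.678 and 0.899). The difference between animal 6 and the Frzb-/- mice was not tested.

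The wild-type mice themselves varied more in these genes than in most. The median SD among the 3 wild-type mice was 0.346 over the 15 probe sets and 0.136 over all, and each of the 15 exceeded the median of all. For Sox5 the wild-type SD ranked between the 92.2 and 96.9 percentiles, and for Sox9 at 96.0 and 96.1. It ranked lower for Sox6, between 54.9 and 66.2, and at Trps1 1457445_at, at 69.6. The other Trps1 probe sets ranked between 84.8 and 96.3, and Runx3 at 90.1. Wild-type mouse 8-1 was the highest of its group at all probe sets of Sox5, Sox9, Trps1 and Runx3, 11 in all, and the lowest at all 4 of Sox6. Over all probe sets it was highest in 34.2% and lowest in 22.3%. Probe sets of 1 gene are not independent, so these are 5 genes and not 15.

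Averaged over the probe sets of a gene as the deviation from the wild-type mean, Sox5 stood at 0.64 and 0.43 in animals 14 and 17, 0.41 in animal 6, and -0.42, 0.38 and 0.04 in the wild-type mice. Sox6 stood at -0.42 and -0.29 in animals 14 and 17, 0.02 in animal 6, and 0.10, -0.17 and 0.07 in the wild-type mice. Wild-type mouse 8-1 thus resembled the Frzb-/- mice in having more Sox5 and less Sox6 than its group mean. It did not resemble them for Runx3, at 0.23 against -0.62 and -0.46 in animals 14 and 17, or for Sox9, at 0.47 against -0.29 and 0.02. For Trps1 the deviations were 0.66 and 0.50 in animals 14 and 17, 0.59 in animal 6, and -0.19, 0.37 and -0.18 in the wild-type mice. Across the 6 arrays Trps1 followed Sox5 most closely (r = 0.91) and ran against Sox6 (r = -0.74), as a description of arrays that fall into groups.

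**Figure D3:**
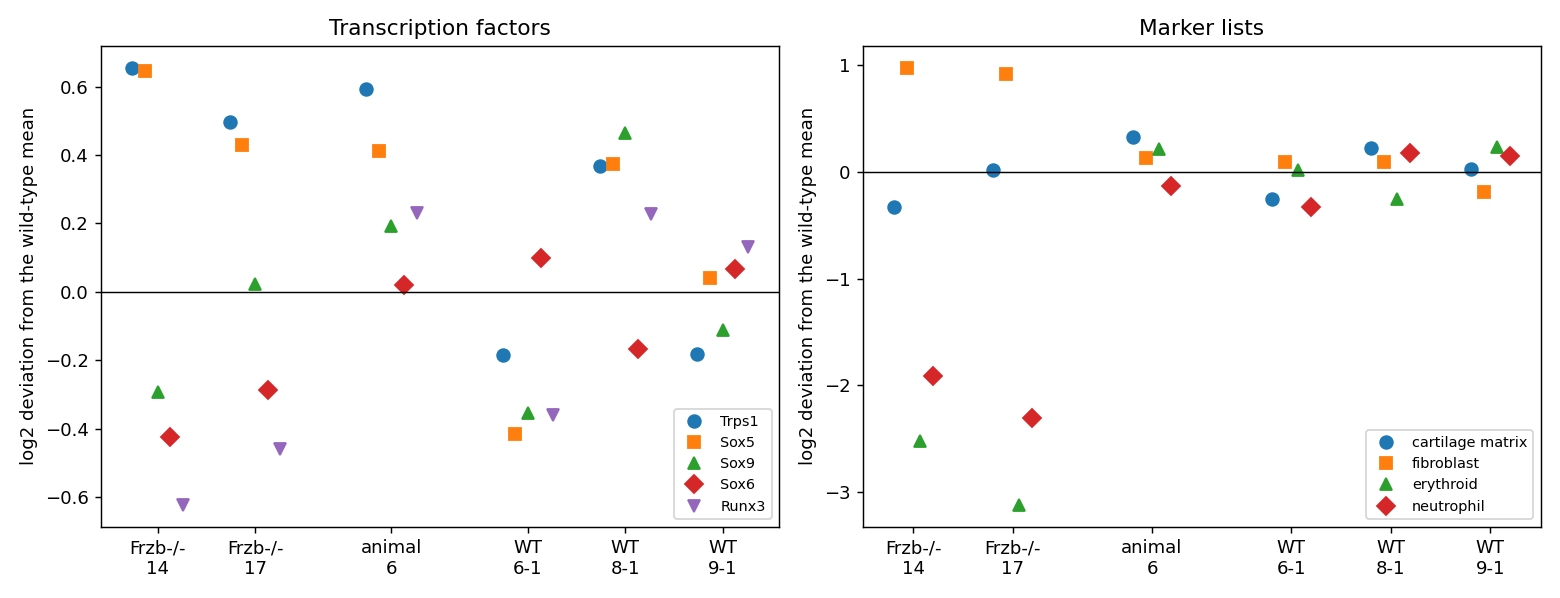
Left, log2 deviation from the wild-type mean of each transcription factor, averaged over its probe sets, in each mouse. Right, the same deviation for the marker lists of cartilage matrix, fibroblasts, erythroid cells and neutrophils. Erythroid and neutrophil markers are low in animals 14 and 17, whereas in animal 6 and the wild-type mice they stay near 0.

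The tissue piece holds many cell types, and in bulk RNA fewer cells of a type cannot be told apart from less RNA per cell. Markers of marrow cells were lower in animals 14 and 17. Of the erythroid markers, 7 of 7 measured fell, among them Epb42 (-3.25), Rhd (-3.15) and Slc4a1 (-2.80), membrane proteins of red blood cells, the transcription factor Klf1 (-2.86) and the heme synthesis enzyme Alas2 (-2.42). Their mean level was 8.71 and 8.11 in animals 14 and 17, 11.46 in animal 6, and 10.98 to 11.47 in the wild-type mice. Of the neutrophil markers, 9 of 10 fell, led by the granule proteins Mmp8 (-3.53), Lcn2 (-2.91), Ltf (-2.68) and Elane (-2.68) and with S100a9 (-1.67) and S100a8 (-1.47) as the brightest, with mean levels of 11.37 and 10.98 in animals 14 and 17, 13.15 in animal 6, and 12.96 to 13.46 in the wild-type mice. Of the fibroblast markers, 4 of 8 rose, Thy1 (1.94), Dpt (1.77), Fbln1 (1.57) and Lum (1.01). Col3a1 (0.70, adjusted p = 0.0084) and Dcn (0.75, adjusted p = 0.0127), the brightest of the list, did not pass, Col3a1 on the fold change alone. The study lists Col3a1 among its up-regulated genes, and here each gene of a list was read at its brightest probe set. Pi16 had the opposite sign (-0.89, adjusted p = 0.00887) and did not pass either. The mean levels of the fibroblast list were 11.66 and 11.61 in animals 14 and 17, 10.82 in animal 6, and 10.50 to 10.78 in the wild-type mice. Without animal 17 the neutrophil count was 2 and the fibroblast count 0, and the fibroblast count was 2 without animal 14 or mouse 8-1, and with animal 6 counted as a Frzb-/- mouse no gene of any list passed.

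Beside Sox6, which red blood cell precursors also use, the erythroid list moved in the same direction in the same mice, and its part in the Sox6 values was not tested. Beside Runx3, which lymphocytes also express, 1 of 7 T and NK cell markers fell (Nkg7, a granule protein of cytotoxic cells, -2.39), and the mean level of that list was 5.15 and 5.15 in animals 14 and 17, 5.72 in animal 6, and 5.69, 5.85 and 6.02 in the wild-type mice. The granzyme Gzma (-1.06, adjusted p = 0.0243) and the T cell receptor subunits Cd3d (-0.77, adjusted p = 0.0109) and Cd3g (-0.37, adjusted p = 0.188) did not pass. Nor did Prf1 (-0.27), Cd8a (-0.15) and Ncr1 (0.04), the last with the opposite sign. Cd3g, Cd8a, Ncr1 and Prf1 were dim, with no value above 5.56 where the array medians were 7.32 to 7.45. These dim genes enter the mean level of the list. Beside Trps1 and Sox5, the mean of the fibroblast list was higher in animals 14 and 17, though not every gene of it (Pi16). In animal 6, which is 1 array, Trps1 lay above every wild-type mouse at all 4 probe sets. The mean of the fibroblast list was 10.82 in animal 6 and 10.78 in the highest wild-type mouse. Of the 5 superficial zone markers 2 rose, Creb5 (1.45) and Thbs4 (1.25). The brightest, Prg4 (0.85, adjusted p = 0.0164) and Clu (0.77, adjusted p = 0.0336), did not pass, nor did Erg (0.64, adjusted p = 0.014). All 5 were higher at an adjusted p under 0.05 with no limit on the fold change (11.7% of all probe sets). The mean levels of this list were 11.46 and 11.40 in animals 14 and 17. They were 10.72 in animal 6 and 10.31 to 10.68 in the wild-type mice. Of the 6 osteoblast markers measured 0 passed, the brightest being Col1a1 (0.27) and Ibsp (0.16). Alpl (0.62, adjusted p = 0.0234) had a higher mean in Frzb-/- mice, whereas Phex (-0.81, adjusted p = 0.0209), Dmp1 (-0.39) and Sp7 (-0.10) had lower ones. Without animal 17 the T and NK count was 0, and the superficial zone count was 1 without mouse 6-1 or 8-1 and 0 without mouse 9-1, animal 14 or animal 17. The part of these cell types in the Runx3, Trps1 and Sox5 values was not tested.

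All 15 genes of the cartilage matrix list were measured, and 0 of 15 passed (2.34% of all probe sets higher, 5.09% lower). Their mean level was 11.95 and 12.30 in animals 14 and 17, 12.61 in animal 6, and 12.03, 12.51 and 12.31 in the wild-type mice. Their log2 fold changes ran between -0.86 for Matn3, a matrilin of growth plate cartilage, and 0.54 for Matn1, and their median was -0.14. Col2a1 (0.03) and Acan (-0.01), the classical SOX9 targets, had nearly the same means in both groups, and Comp, with Col2a1 the brightest of the list, had 0.24 (adjusted p = 0.279). When each array was centred on these genes, Sox5 at 3 probe sets and Trps1 at 2 had an adjusted p under 0.05, and the Sox6 probe set 1427677_a_at lost its place under that threshold (adjusted p = 0.321). This scaling moved the median of all probe sets up by 0.13, and the share of all probe sets under that threshold after it was not counted.

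Genes of the same family and pathway were then counted at the brightest probe set of each gene. Among the other SOX genes, 9 of 16 were measured and 1 rose, the endothelial factor Sox17 (1.48, adjusted p = 0.00266). Its count was 0 without wild-type mouse 8-1, without animal 14 or without animal 17. The related Sox7 (1.03, adjusted p = 0.053) and Sox18 (0.61, adjusted p = 0.0562), also endothelial, did not pass, nor did Sox4 (-0.20, adjusted p = 0.29), the brightest of the list. Of the 12 SOX9 partners, none passed, although the coactivator Arid5b (0.68, adjusted p = 0.00739) and Creb1 (-0.74, adjusted p = 0.00668) missed on the fold change alone. The brightest, Hif1a (0.30) and the protein kinase A subunit Prkaca (0.46, adjusted p = 0.0462), did not pass. The median of the partners was 0.04.

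Of the RUNX partners and hypertrophy genes, 11 of 13 were measured and 0 passed. Cbfb, the shared partner of all RUNX proteins, had a log2 fold change of 0.28 and Runx1 of 0.27, while Col10a1, the collagen of hypertrophic cartilage, had 0.60 (adjusted p = 0.27). The brightest of the list, Mmp13 (0.40, adjusted p = 0.0381), a collagenase of late hypertrophic cells, and Ibsp (0.16), did not pass. Neither did Alpl (0.62, adjusted p = 0.0234). Foxa3 (-0.47), Mef2d (-0.12), Mef2c (-0.10) and Hdac4 (-0.04) had the opposite sign, and Foxa2 (0.01) had nearly the same mean in both groups. Of the hedgehog and PTHrP pathway, which sets the pace of hypertrophy, 11 of 12 genes were measured and 1 rose, the hedgehog coreceptor Gas1 (1.15, adjusted p = 0.00963). The PTHrP receptor Pth1r had a log2 fold change of 0.17. The signal transducer Smo (0.92) and the transcription factor Gli3 (0.87) had adjusted p values of 0.00588 and 0.00659 but smaller changes than the threshold asks. Ihh (-0.20), Ptch1 (-0.15) and Sufu (-0.13) had the opposite sign and did not pass, and the other genes measured in this list had positive log2 fold changes. Among limb and skeletal transcription factors, 17 of 18 were measured and 2 rose, the mesenchymal homeobox genes Prrx1 (1.47, adjusted p = 0.00162) and Prrx2 (1.48, adjusted p = 0.00266), and Zbtb20, the brightest, did not pass (0.66, adjusted p = 0.0155). Gas1 no longer passed without mouse 6-1, mouse 9-1, animal 14 or animal 17. Of the Prrx pair 1 passed without mouse 8-1 and 0 without animal 14 or animal 17.

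**Figure D4:**
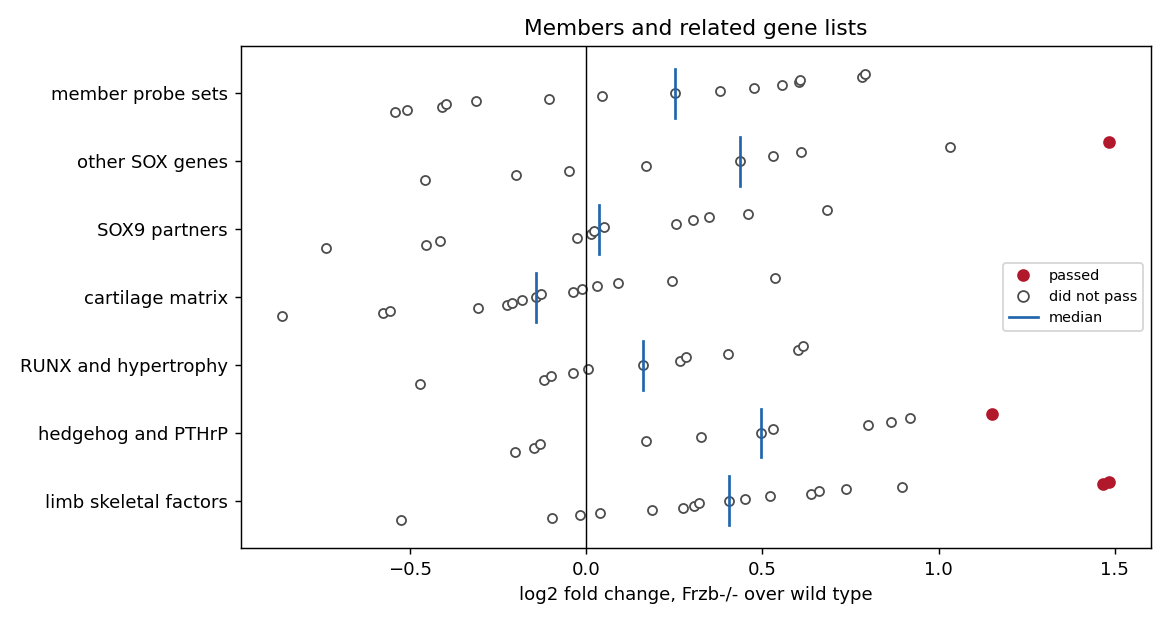
Log2 fold changes in Frzb-/- mice relative to wild-type mice (horizontal axis) of the 15 probe sets and of the genes in related lists, 1 point a gene at its brightest probe set, with the list's median as a blue line. Red points passed; they are Sox17 (1.48), Gas1 (1.15), Prrx1 (1.47) and Prrx2 (1.48), and none of the 15 probe sets in the top row did.

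For each factor, the genes with the most similar profile over the 6 arrays were listed among 9115 genes with values above the median, by Pearson's r at the brightest probe set. Sox5 was followed most closely by Arf4, a small GTPase of vesicle transport (r = 0.998), Tcf12, a basic helix-loop-helix factor (0.994), and Tmtc4 (0.991). For Sox6 they were Dnajc16 (0.994), Ipo11 (0.988) and Ank1 (0.985), the ankyrin of the red blood cell membrane, which had a log2 fold change of -0.93 (adjusted p = 0.0109). For Trps1 they were Id4, an inhibitor of basic helix-loop-helix factors (0.995), the tetraspanin Cd9 (0.987) and Cd109 (0.986). Runx3 was nearest to Stk26 (0.991), Slc25a5 (0.988) and Canx (0.988), and Sox9 to Cwc25 (0.985), Cep170 (0.985) and Dpy19l4 (0.982). With 6 arrays many genes reach such values, and between 10 genes for Sox9 and 43 for Sox6 had r above 0.95.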

How the data were processed

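RNA of 6 mice was measured on Affymetrix Mouse Genome arrays, 1 per mouse. The authors made log2 expression values by RMA (affy 1.20.0), with background correction and quantile normalisation, and removed control and absent probe sets. The deposited log2 values were used as given. Probe sets were named from the platform annotation, leaving out those with several symbols (677) or none (4851). Promoter sequences came from RefSeq tables.

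Animals 14 and 17 were set against 3 wild-type mice, because an earlier analysis had matched the fold changes published by the study to these 2 arrays. The labels give all 3 mice as Frzb-/-. Tests used limma 3.58.1 (lmFit, eBayes, two-sided) in R 4.3.3 over all 30618 probe sets. Each mouse is a separate animal. The p-values rest on the spread between mice, which limma moderates for each probe set with the spread over all probe sets. The fit was tested on simulated data. Tables and figures used Python 3.11.15, numpy 2.4.6, pandas 2.3.3 and matplotlib 3.10.9. Lists were read at each gene's brightest probe set. Named were all probe sets of the listed factors, the genes of each list that passed (up to 4) and its 2 brightest, Frzb, and the 3 genes most like each factor. Other list genes named were chosen after their values were seen. Members and lists were chosen with earlier results of these data known.

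The alternatives were to take in all 3 labelled mice, to leave out 1 mouse at a time, a looser threshold, probe sets above the median, cyclic loess, trended and robust moderation, centring on cartilage genes and averaging the probe sets of a gene. Arrays carry no read depth.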

Additional observations from a re-analysis of the deposited data

How the results depend on the processing

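Counts of the 15 probe sets that passed stayed at 0 in each direction under every alternative except the looser threshold of an adjusted p under 0.05 with no limit on the fold change, which gave 1 higher (Trps1) and 1 lower (Sox6). At that threshold the counts were 0 and 0 with all 3 labelled mice, without animal 14 and without animal 17, where the spread of the lone Frzb-/- array is taken from the wild-type mice. They were 3 higher (all Trps1) and 0 lower without mouse 8-1, 1 and 0 without mouse 9-1, and 1 (Trps1) and 1 (Runx3) without mouse 6-1. Cyclic loess gave 2 and 0, centring on cartilage genes 5 and 0, trended and robust moderation 2 and 1, and probe sets above the median 1 and 1. The share of all probe sets under that threshold was counted in the main fit only (11.7% higher and 14.8% lower). The counts under the alternatives therefore have no background beside them. Over the lists, 13 genes passed as higher and 22 as lower. With all 3 labelled mice there were 0 and 0, and at the looser threshold 34 higher. Leaving out 1 mouse gave 0 to 11 higher, with 0 without animal 17, 6 without animal 14 and 7 without wild-type mouse 8-1, and 11 to 22 lower, with 11 without animal 17. The causes were not tested.

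Of the log2 fold changes of single probe sets, 143 kept their direction and side of the threshold under the alternatives and 6 turned their sign. These were Sox6 1426018_a_at (0.0079 with all 3 labelled mice, 0.022 centred on cartilage genes, -0.27 to 0.055 when 1 mouse was left out, with 0.055 without animal 14), Sox9 1451538_at (-0.18 to 0.26, with -0.18 without mouse 6-1 and -0.044 without animal 17) and Trps1 1457445_at (-0.19 to 0.69, with -0.19 without animal 14). Fitting animal 6 with the wild-type mice alone also gave 0 calls. No paired analysis was possible because the animal numbers of the groups are not shared. The number of arrays limits what can be detected, and 7 of the 15 intervals reach beyond 1 log2 unit.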

Other observations

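The remaining cell type lists were read in the same way. Of 5 smooth muscle genes 3 rose in Frzb-/- relative to wild-type mice, the contractile genes Myh11 (1.79), Tagln (1.44) and Acta2 (1.24), with Des at 0.07, and none did so without animal 17. Of 7 B cell genes measured 3 fell, the surface molecules Ms4a1 (-2.57), Cd79a (-2.33) and Cd79b (-2.17), while the brightest, Ebf1 (0.18) and Vpreb1 (-1.38), did not pass, and 2 fell without mouse 8-1. Of 6 macrophage genes 2 fell, the chemokine receptor Ccr2 (-1.60) and Mpeg1 (-1.38), with 1 left without mouse 8-1 or animal 17, and Csf1r, the brightest, had 0.19. None of the 5 osteoclast genes (Acp5 0.05 and Ctsk 0.29 among them), 6 endothelial genes (Eng 0.52, Kdr 0.37) or 5 skeletal muscle genes (Acta1 0.16, Myl1 0.34) passed in limma, although 3 endothelial genes had an adjusted p under 0.05.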
